A study of Arabidopsis with 24 samples.

Results

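The genes described here are the 9 Arabidopsis genes for auxin inactivation GH3.1 (AT2G14960), GH3.2 (AT4G37390), GH3.3 (AT2G23170), GH3.4 (AT1G59500), GH3.5 (AT4G27260), GH3.6 (AT5G54510), GH3.9 (AT2G47750), GH3.17 (AT1G28130) and DAO1 (AT1G14130), among 32833 genes with deposited values. They were selected by locus code, for their known function, with earlier results of these data known. RNA-seq was done on whole seedlings of 4 genotypes that had grown for 6 days in white light (WL) and then either remained in WL or were given light with a low ratio of red to far-red (low R:FR, 0.3) for 6 h, with 3 libraries in each of the 8 groups. Col-0 is the wild type, and all mutants are in the Col-0 background. The line dvl1-1D overexpresses RTFL18, a small peptide gene, from an activation-tagged allele and is 1 line. The double mutant bsk36 carries T-DNA insertions in BSK3 and BSK6, which encode brassinosteroid signaling kinases, and pif47 is mutated in PIF4 and PIF7, which encode transcription factors of the shade response. The question was how low R:FR and each genotype alter the transcripts of enzymes that remove active auxin.

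Auxin (indole-3-acetic acid, IAA) drives stem and petiole elongation, and a seedling under low R:FR makes more of it through the enzymes TAA1 and YUCCA. Enzymes of the GH3 family limit active IAA by coupling it to amino acids, mainly aspartate and glutamate, and many GH3 genes are themselves auxin-induced. DAO1 is a dioxygenase that acts in the oxidation of IAA to an inactive product. Gain-of-function plants for GH3.5 (wes1-D), GH3.6 (dfl1-D) and GH3.2 (ydk1-D) are dwarfed, with short hypocotyls.

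FPKM (sequenced fragments scaled by transcript length and library size) summed to between 758368 and 801109 per library, and the number of reads is unknown, so no counting error was computed. Steps between low values gave relative depths from 0.822 to 1.23 across the libraries. RTFL18 was at 517 to 975 FPKM in dvl1-1D and at 12.9 FPKM or less in Col-0, BSK3 was at 0.03 FPKM or less in bsk36, and PIF7 was at 1.34 FPKM or less in pif47. PIF4 was at 7.67 to 8.05 FPKM in pif47 in low R:FR, against 22.1 to 26.5 FPKM in Col-0, so its transcript was still measured there. The shade marker PIL1 rose in all 4 genotypes, in Col-0 from 0.5 ± 0.14 to 28.2 ± 0.426 FPKM (SD, n = 3).

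Levels differed widely among the 9 genes. In Col-0 in WL, GH3.6 was highest at 29.5 ± 1.66 FPKM (SD, n = 3), followed by GH3.17 at 23.1 ± 3.2 FPKM and GH3.5 at 19.2 ± 1.05 FPKM, and the library ranges of GH3.17 and GH3.5 overlapped. GH3.3 at 8.03 ± 1.02 FPKM and GH3.2 at 6.90 ± 0.744 FPKM also overlapped, and DAO1 lay below both at 5.31 ± 0.135 FPKM. GH3.9 and GH3.1, at 1.24 ± 0.212 and 1.07 ± 0.262 FPKM, overlapped near the low end of the measured range. GH3.4 was listed at 0 in all 24 libraries and was not tested, whereas the other 8 genes were above 0 in every library and passed the filter of a mean of at least 0.5 FPKM. How reads that match several related GH3 genes were counted is not given in the sources used here. Whole seedlings were sampled, so fewer cells of a type and less RNA per cell cannot be told apart.

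**Figure D1:**
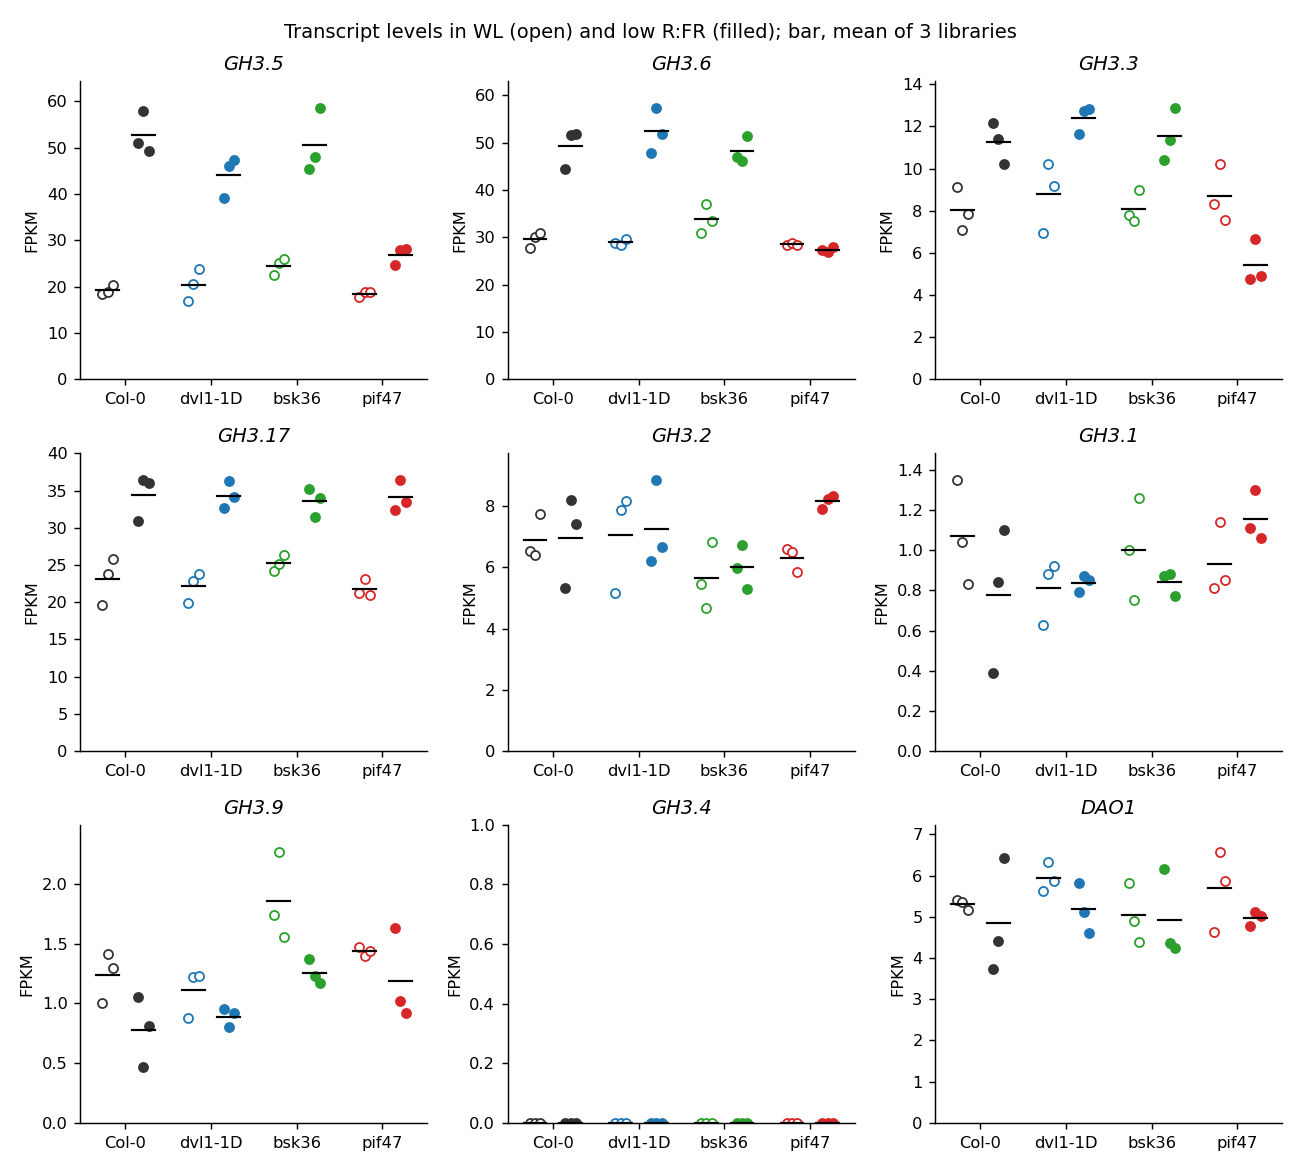
FPKM of each of the 9 genes (y axis, scale differs by gene) in WL (open circles) and low R:FR (filled circles) for the 4 genotypes (x axis), with a bar at the mean of 3 libraries. GH3.5 libraries of Col-0 in low R:FR sat at 49.3 to 57.9 FPKM, those of pif47 in low R:FR at 24.7 to 28.1 FPKM, and GH3.4 was at 0 throughout.

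In Col-0, low R:FR raised 4 of the 9 transcripts, GH3.5, GH3.6, GH3.17 and GH3.3, and lowered GH3.9. Of all 20682 tested genes, 21% were called higher, 15.7% lower and 36.7% in either direction in this contrast by limma at a Benjamini-Hochberg adjusted p under 0.05. The median log2 fold change was 0.24 over the 8 tested genes of the group and 0.06 over all tested genes. Fold changes here are differences on the log2(FPKM + 0.1) scale.

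GH3.5, which couples IAA and can also act on salicylic acid, changed most. It was at 18.4, 18.9 and 20.4 FPKM in the Col-0 libraries kept in WL and at 51.0, 57.9 and 49.3 FPKM in those in low R:FR. Every low R:FR library was above every WL library, and the log2 fold change was 1.45 (SE 0.111, adjusted p = 5.83e-09), a 2.73-fold rise with a 95% interval of 2.33 to 3.21. GH3.6, the gene of the dfl1-D dwarf, was at 27.7, 30.0 and 30.9 FPKM in WL libraries and at 44.4, 51.7 and 51.8 FPKM under low R:FR. These groups did not overlap either, with a log2 fold change of 0.74 (SE 0.0736, adjusted p = 1.94e-07).

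GH3.17, which prefers glutamate and is known to restrain hypocotyl elongation, was at 19.6, 23.8 and 25.9 FPKM in WL libraries and at 30.9, 36.4 and 36.0 FPKM under low R:FR, a log2 fold change of 0.58 (SE 0.091, adjusted p = 4.79e-05) without overlap. GH3.3 was at 9.12, 7.11 and 7.85 FPKM in WL libraries and at 12.2, 11.4 and 10.2 FPKM under low R:FR. The rise of GH3.3 was smaller, 0.49 on the log2 scale (SE 0.147, adjusted p = 0.0131), and its groups did not overlap. It lost the call without Col-0 WL replicate 2 (0.40, adjusted p = 0.0619), without Col-0 low R:FR replicate 1 (0.43, adjusted p = 0.0542) and with quantile normalization (0.40, adjusted p = 0.0538), over a range of 0.00974 to 0.0619 in all alternatives.

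GH3.9, known from its effect on primary root length, was at 1.0, 1.41 and 1.3 FPKM in WL libraries and at 1.05, 0.470 and 0.810 FPKM under low R:FR. It overlaps a long non-coding RNA gene, AT2G09955, that was listed at 0 in every library. The groups overlapped, and the fall of 0.65 on the log2 scale (SE 0.247) passed the threshold narrowly, at adjusted p = 0.0438. It was lost without Col-0 WL replicate 2 (adjusted p = 0.13) or 3 (0.101) and without Col-0 low R:FR replicate 2 (0.27) or 3 (0.0565), with adjusted p between 0.0112 and 0.27 over all alternatives. GH3.2 was nearly level, at 6.90 ± 0.744 FPKM in WL and 6.98 ± 1.49 FPKM in low R:FR, with a 95% interval of the log2 fold change from -0.38 to 0.37. GH3.1 was at 1.07 ± 0.262 and 0.777 ± 0.359 FPKM, not called at adjusted p = 0.187, although it was called without Col-0 low R:FR replicate 3 (-0.77, adjusted p = 0.0478, range over the alternatives 0.0478 to 0.741). DAO1, the oxidase, was at 5.42, 5.35 and 5.16 FPKM in WL libraries and at 3.73, 4.41 and 6.44 FPKM under low R:FR. Its low R:FR libraries lay on both sides of the WL libraries, and the 95% interval of its log2 fold change was -0.52 to 0.19. From WL to low R:FR, DAO1 went from 5.94 ± 0.367 to 5.18 ± 0.613 FPKM in dvl1-1D. It went from 5.04 ± 0.734 to 4.92 ± 1.08 FPKM in bsk36 and from 5.69 ± 0.981 to 4.98 ± 0.186 FPKM in pif47. DAO1 was not called for low R:FR against WL in any genotype.

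Low R:FR raised the same 4 genes, GH3.5, GH3.6, GH3.17 and GH3.3, in dvl1-1D and in bsk36. Over all tested genes, 10.7% were called higher in dvl1-1D and 8.09% in bsk36. GH3.9 was not called in either line. It was at 1.11 ± 0.199 FPKM in WL and 0.89 ± 0.0794 FPKM in low R:FR in dvl1-1D. In bsk36 these values were 1.86 ± 0.369 and 1.26 ± 0.103 FPKM. The bsk36 libraries did not overlap, at 1.56 to 2.27 FPKM in WL and 1.17 to 1.37 FPKM in low R:FR, whereas those of dvl1-1D did. The low R:FR effect on GH3.9 was not called different from that in Col-0 in either line. GH3.5 went from 16.9, 20.5 and 23.8 FPKM to 39.0, 46.0 and 47.4 FPKM in dvl1-1D (log2 fold change 1.12, SE 0.111, adjusted p = 3.64e-07). In bsk36 it went from 22.5, 25.1 and 26.0 FPKM to 45.3, 47.9 and 58.5 FPKM (1.04, SE 0.111, adjusted p = 1.15e-06). Low R:FR and WL libraries did not overlap in either line.

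GH3.6 rose from 28.9 ± 0.634 to 52.3 ± 4.71 FPKM in dvl1-1D (log2 fold change 0.85, SE 0.0736, adjusted p = 5.45e-08) and from 33.8 ± 3.08 to 48.2 ± 2.83 FPKM in bsk36 (0.51, SE 0.0736, adjusted p = 4.01e-05). GH3.17 rose to 34.3 ± 1.83 FPKM in dvl1-1D and to 33.6 ± 1.95 FPKM in bsk36, close to the 34.4 ± 3.08 FPKM of Col-0. GH3.3 rose by 0.51 on the log2 scale in both lines (SE 0.147, adjusted p = 0.0184 in dvl1-1D and 0.0204 in bsk36). The GH3.3 call was lost in dvl1-1D without WL replicate 1 (0.35, adjusted p = 0.125), low R:FR replicate 2 (0.49, 0.0629) or low R:FR replicate 3 (0.48, 0.0578), with adjusted p from 0.0102 to 0.125 over the alternatives. In bsk36 it was lost without WL replicate 1 (0.48, adjusted p = 0.0661), WL replicate 2 (0.46, 0.0798) or low R:FR replicate 3 (0.42, 0.104), with adjusted p from 0.0153 to 0.104 over the alternatives.

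The response differed in pif47, where GH3.5 and GH3.17 rose, GH3.3 fell and GH3.6 did not pass the test. Of all tested genes, 8.25% were called higher and 10.1% lower in this contrast. GH3.5 was at 17.8, 18.9 and 18.8 FPKM in WL libraries and at 24.7, 27.9 and 28.1 FPKM under low R:FR. The groups did not overlap, and the log2 fold change was 0.53 (SE 0.111, adjusted p = 0.00187), or 1.45-fold.

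GH3.6 was at 28.5, 28.8 and 28.4 FPKM in the pif47 libraries kept in WL and at 27.4, 26.9 and 27.8 FPKM under low R:FR. All low R:FR libraries were slightly below all WL libraries, with a log2 fold change of -0.06 (95% interval -0.21 to 0.09, adjusted p = 0.625). GH3.3 was at 8.32, 10.2 and 7.58 FPKM in WL libraries and at 4.76, 6.65 and 4.90 FPKM under low R:FR. It fell by 0.67 on the log2 scale (SE 0.147, adjusted p = 0.0027), the opposite direction to its rise in the other 3 genotypes, and its groups did not overlap.

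GH3.17 in pif47 was at 21.3, 23.1 and 20.9 FPKM in WL libraries and at 32.4, 36.4 and 33.5 FPKM under low R:FR, a log2 fold change of 0.64 (SE 0.091, adjusted p = 4.58e-05). Its low R:FR level of 34.1 ± 2.05 FPKM was close to the 34.4 ± 3.08 FPKM of Col-0. GH3.2 was at 6.61, 6.52 and 5.84 FPKM in WL libraries and at 7.91, 8.23 and 8.33 FPKM under low R:FR. These libraries did not overlap, but GH3.2 was not called (0.36, SE 0.179, adjusted p = 0.171, range over the alternatives 0.0318 to 0.324), the smallest value coming from a fit of these libraries alone.

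**Figure D2:**
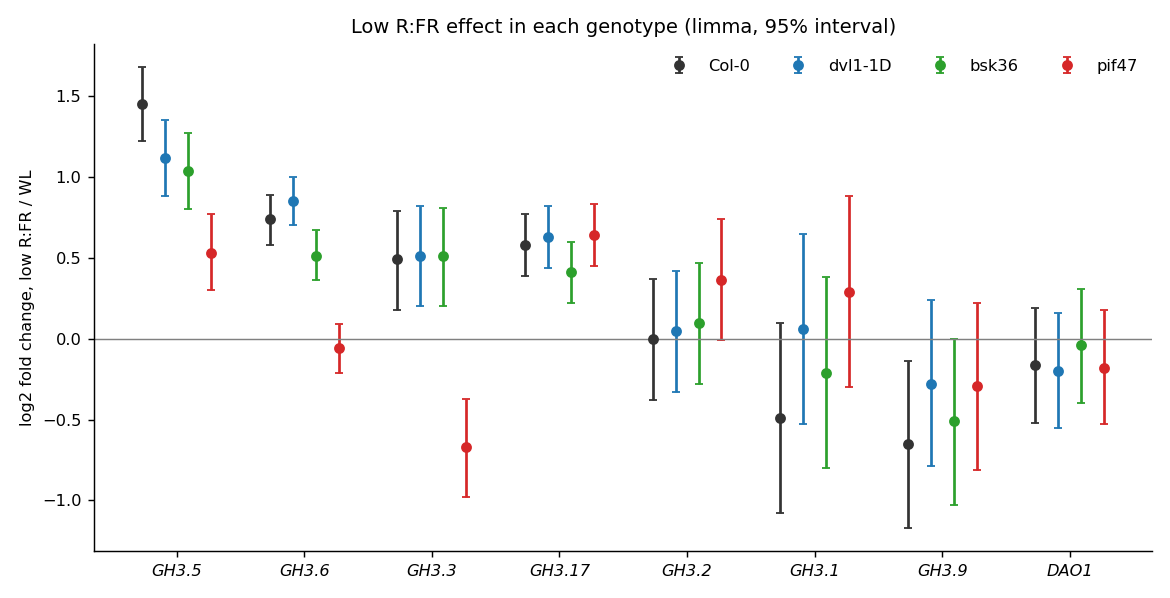
Log2 fold change between low R:FR and WL on the log2(FPKM + 0.1) scale (y axis) for the 8 tested genes (x axis) in each genotype, with 95% intervals from limma. The pif47 value was 0.53 for GH3.5, -0.06 for GH3.6 and -0.67 for GH3.3, each below the values of the other 3 genotypes, whereas for GH3.17 it was 0.64.

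The low R:FR effect in pif47 differed from that in Col-0 for 3 of the 9 genes by a test of the difference itself, with GH3.5 rising less in pif47, GH3.6 not called there and GH3.3 changing in the opposite direction. All 3 differences were negative, in a test where 1.68% of all tested genes were called lower and 2.44% in either direction. The difference was -0.92 for GH3.5 (SE 0.157, adjusted p = 0.00214), -0.80 for GH3.6 (SE 0.104, adjusted p = 0.000143) and -1.16 for GH3.3 (SE 0.208, adjusted p = 0.00319), on the log2 scale. For GH3.17 the difference was 0.06, with a 95% interval of -0.20 to 0.33 (adjusted p = 0.87). None of the 9 genes was called in the same test for dvl1-1D or bsk36, where 2.34% and 3.03% of all tested genes were called. At an unadjusted p under 0.05, which 18.4% and 19.4% of all tested genes met, the limma test gave 1 gene in dvl1-1D, GH3.5 (-0.33, 95% interval -0.66 to -0.01), and 2 in bsk36, GH3.5 (-0.41, -0.74 to -0.09) and GH3.6 (-0.22, -0.44 to -0.01).

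The effect in pif47 was also compared with that in the other mutants, a comparison added after the data had been seen. The differences were negative and called for GH3.6 and for GH3.3, whose direction was reversed, against both dvl1-1D and bsk36, where 1.3% and 1.76% of all tested genes were called lower. For GH3.6 the difference was -0.91 against dvl1-1D (SE 0.104, adjusted p = 3.62e-05) and -0.57 against bsk36 (SE 0.104, adjusted p = 0.00331). For GH3.3 it was -1.18 against both (SE 0.208, adjusted p = 0.00343 and 0.00246). GH3.5 was not called, at -0.58 against dvl1-1D (adjusted p = 0.0752, range over the alternatives 0.0108 to 0.179) and -0.50 against bsk36 (adjusted p = 0.115, range 0.0223 to 0.25). Without dvl1-1D WL replicate 3, the GH3.5 difference from dvl1-1D was called (-0.70, adjusted p = 0.0253).

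Comparing genotypes within one light condition gave few differences in WL. None of the 9 genes was called between dvl1-1D and Col-0 or between pif47 and Col-0 in WL, where 4.63% and 3.65% of all tested genes were called, and none had an unadjusted p under 0.05 in limma, against 20.1% and 19.3% of all tested genes. In bsk36, GH3.5 was called higher in WL, where 13.7% of all tested genes were called higher. Its bsk36 libraries at 22.5 to 26.0 FPKM were all above the Col-0 libraries at 18.4 to 20.4 FPKM, a log2 fold change of 0.35 (SE 0.111, adjusted p = 0.0338). The call was lost without Col-0 WL replicate 1 (0.32, adjusted p = 0.125) or 2 (0.34, 0.0747), without bsk36 WL replicate 2 (0.33, 0.0867) or 3 (0.31, 0.127) and with quantile normalization (0.29, 0.0923), with a range of 0.00631 to 0.127 over the alternatives. The median of all tested genes in this contrast was 0.0791 as deposited, 0.122 after each library was rescaled to the same sum and 0.0102 after quantile normalization. GH3.6 was at 33.8 ± 3.08 FPKM in bsk36 and 29.5 ± 1.66 FPKM in Col-0 in WL, not called (adjusted p = 0.0745), but called without bsk36 WL replicate 1 (0.25, adjusted p = 0.0364) and after the rescaling (0.24, adjusted p = 0.0284), with a range of 0.0284 to 0.296 over the alternatives.

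In low R:FR, 3 of the 9 genes were lower in pif47 than in Col-0, where 6.57% of all tested genes were called lower. The log2 fold change was -0.97 for GH3.5 (SE 0.111, adjusted p = 4.17e-06), -0.84 for GH3.6 (SE 0.0736, adjusted p = 1.19e-07) and -1.05 for GH3.3 (SE 0.147, adjusted p = 4.69e-05). The pif47 and Col-0 libraries overlapped for none of the 3 genes. GH3.17 was level between them, with a log2 fold change of -0.01 and a 95% interval of -0.20 to 0.18. GH3.1 was at 1.16 ± 0.127 FPKM in pif47 and 0.777 ± 0.359 FPKM in Col-0, not called (adjusted p = 0.171), but called higher without Col-0 low R:FR replicate 3 (0.88, adjusted p = 0.0488, range over the alternatives 0.0488 to 0.636).

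None of the 9 genes was called in low R:FR between dvl1-1D and Col-0 or between bsk36 and Col-0, where 9.4% and 1.44% of all tested genes were called. At an unadjusted p under 0.05, met by 24.6% and 15.1% of all tested genes, limma gave GH3.5 in dvl1-1D and GH3.9 in bsk36. GH3.5 was at 39.0 to 47.4 FPKM in dvl1-1D, below the 49.3 to 57.9 FPKM of Col-0 in every library (log2 fold change -0.26, SE 0.111, adjusted p = 0.153). GH3.9 was at 1.17 to 1.37 FPKM in bsk36 and at 0.470 to 1.05 FPKM in Col-0 (0.69, SE 0.247, adjusted p = 0.183).

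The study called genes with DESeq2 at a fold of 2 or more and P of 0.01 or less. When these thresholds were put on the limma fold changes, in either direction, and unadjusted P, fewer of the 9 genes were called. GH3.5 was called for low R:FR against WL in Col-0, dvl1-1D and bsk36, where 3.48%, 1.77% and 2% of all tested genes were called, and no gene of the group was called in pif47, where 1.09% were. GH3.3 was called for pif47 against Col-0 in low R:FR (2.19% of all tested genes) and for the difference between the low R:FR effects in pif47 and Col-0 (1.2%). GH3.5 was not called for bsk36 against Col-0 in WL, where 1.1% of all tested genes were.

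**Figure D3:**
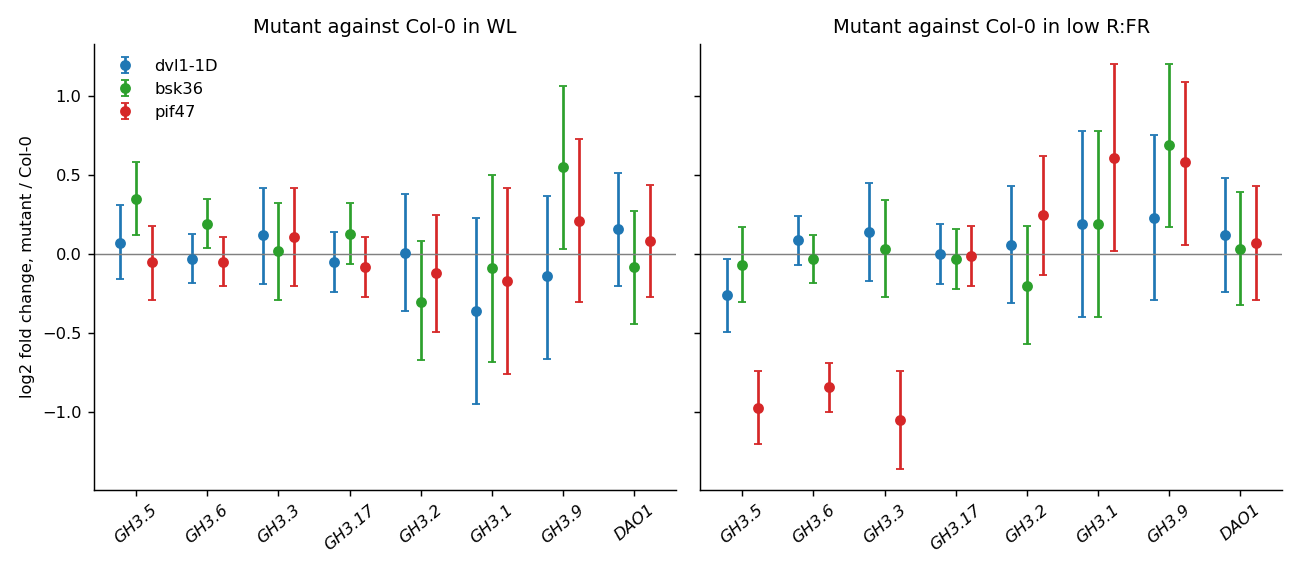
Log2 fold change of each mutant against Col-0 on the log2(FPKM + 0.1) scale (y axis) for the 8 tested genes (x axis), in WL (left) and low R:FR (right), with 95% intervals from limma. In low R:FR the pif47 points were at -0.97 for GH3.5, -0.84 for GH3.6 and -1.05 for GH3.3.

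The mean ratio of GH3.5 to GH3.6, both among the most abundant GH3 transcripts, was higher in low R:FR than in WL in each genotype. GH3.6 was above GH3.5 in every WL library, with a mean ratio of GH3.5 to GH3.6 of 0.651 ± 0.0193 in Col-0 (SD, n = 3). In low R:FR this ratio was 1.07 ± 0.107 in Col-0, 1.05 ± 0.0874 in bsk36 and 0.982 ± 0.0731 in pif47. GH3.5 was above GH3.6 in 2 of 3 libraries in each of these genotypes, and the library ranges of GH3.5 and GH3.6 overlapped there. The ratio was 0.844 ± 0.0605 in dvl1-1D in low R:FR, where GH3.6 was higher in all 3 libraries, and 0.705 ± 0.109 in WL.

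Summed over the 8 GH3 genes, FPKM of Col-0 went from 89.1 ± 5.62 (WL) to 156 ± 10.9 (low R:FR, SD, n = 3). The sum went from 89.3 ± 9.12 to 152 ± 12.0 FPKM in dvl1-1D and from 100.1 ± 5.80 to 152 ± 10.5 FPKM in bsk36. In pif47 the sum went from 86.2 ± 3.35 to 104 ± 4.23, a ratio of 1.21 against 1.75 in Col-0. GH3.5 made up 49.9% of the summed difference in Col-0, GH3.6 29.4%, GH3.17 16.9% and GH3.3 4.81%. In pif47, GH3.17 accounted for 12.3 and GH3.5 for 8.38 of the 18.1 FPKM by which the sum was higher, and the difference of GH3.3 was -3.26 FPKM. The share of GH3.17 in the sum in low R:FR was 32.7 ± 0.813% in pif47, where it was the highest of the GH3 transcripts, and 22 ± 0.869% in Col-0.

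**Figure D4:**
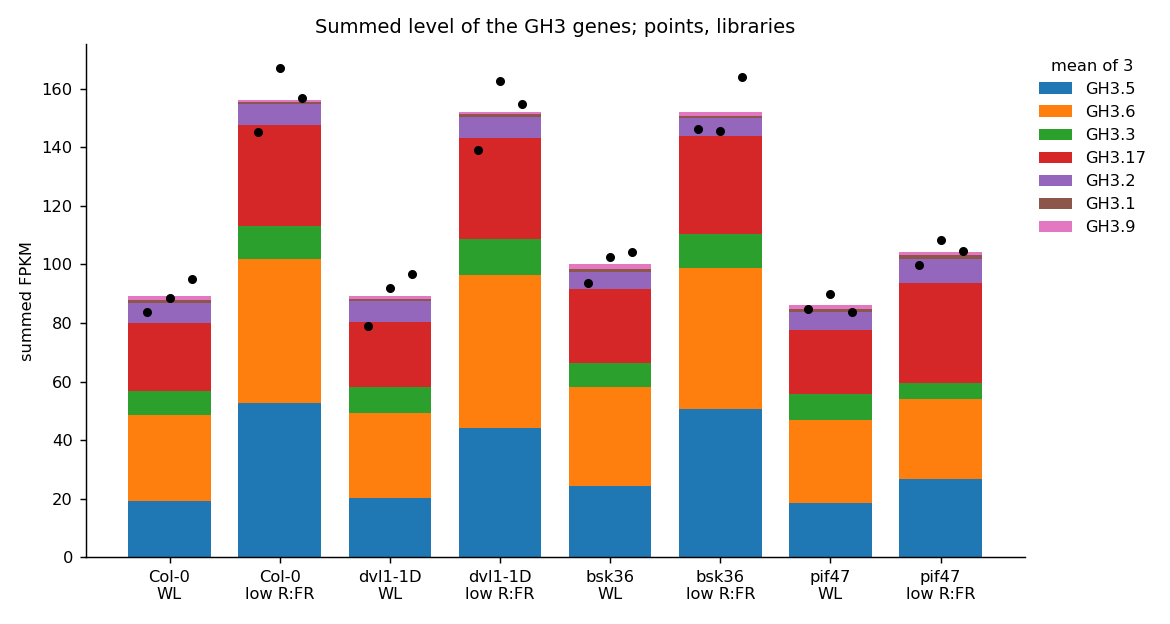
Summed FPKM of the GH3 genes (y axis, from 0) in the 8 groups (x axis), with stacked bars for the mean of 3 libraries of each gene and points for the sum in each library. Sums under low R:FR were 99.9 to 108 in pif47 and 145 to 167 in Col-0.

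Other members of the GH3 family, listed by family and not by substrate, and other auxin genes give the setting of these values. Among 11 other GH3 genes, 6 were tested and 1, GH3.10 (DFL2, which affects hypocotyl growth in red light), rose in Col-0, from 14.3 ± 0.439 to 28.5 ± 0.970 FPKM (log2 fold change 0.99, SE 0.0694, adjusted p = 1.63e-09). GH3.10 also rose in the 3 mutants, and its effect in pif47 was smaller than in Col-0 (difference -0.43, adjusted p = 0.0184). GH3.14 (0.08, adjusted p = 0.253) and GH3.18 (-0.48, adjusted p = 0.297) were not called in Col-0. Among 12 other genes for IAA methylation, glucosylation or oxidation and for conjugate hydrolysis, 10 were tested, and 3 rose in Col-0, 2 each in bsk36 and dvl1-1D and none in pif47, where 2 had an unadjusted p under 0.05 in limma. Over all tested genes 21% rose in Col-0, 8.09% in bsk36, 10.7% in dvl1-1D and 8.25% in pif47. The list's median log2 fold change was 0.10 in Col-0 and 0.16 in pif47. In the limma test of the difference between pif47 and Col-0, 0 of the 10 were called and 0 had an unadjusted p under 0.05. With 1.68% of all tested genes called lower in that test, 10 genes are too few to show whether the list departs from that share. The 3 in Col-0 were ILL6, of the amidohydrolase family, from 4.31 ± 0.321 to 7.03 ± 0.731 FPKM, ILL1 of the same family (0.28, adjusted p = 0.00744) and UGT74D1, an auxin glucosyltransferase (0.14, adjusted p = 0.0446).

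On the synthesis side, 9 of 14 genes were tested, and 3 rose and 3 fell in Col-0, where 21% of all tested genes rose and 15.7% fell. In pif47, where these shares were 8.25% and 10.1%, 1 rose and none fell. YUC8 rose from 1.74 ± 0.372 to 17.8 ± 2.18 FPKM, YUC2 from 1.62 ± 0.272 to 6.63 ± 0.668 FPKM and YUC9 from 1.49 ± 0.177 to 4.83 ± 0.324 FPKM in Col-0. In pif47, YUC8 rose from 1.21 ± 0.159 to 2.20 ± 0.409 FPKM, and YUC2 and YUC9 were not called. The 3 that fell in Col-0, named after their values were seen, were TAA1, YUC4 and YUC6. TAA1, for the aminotransferase ahead of the YUCCA step, went from 11.5 ± 1.31 to 7.19 ± 0.249 FPKM in Col-0 (-0.66, SE 0.105, adjusted p = 5.54e-05) and was at 10.9 ± 1.27 and 10.9 ± 0.862 FPKM in pif47, and its effect in pif47 differed from that in Col-0 by 0.67 (SE 0.149, adjusted p = 0.0174). Among 29 Aux/IAA genes, which encode auxin-induced repressors of the auxin response, 28 were tested. The number that rose was 15 in Col-0, 7 in pif47, 19 in dvl1-1D and 14 in bsk36. Over all tested genes, 21%, 8.25%, 10.7% and 8.09% rose, in the same order. The list's median log2 fold change was 0.65 in Col-0 and 0.11 in pif47, against 0.06 and 0.03 over all tested genes. It was 0.53 in dvl1-1D and 0.41 in bsk36, against 0.03 and -0.01. IAA19 rose from 5.34 ± 0.301 to 44.6 ± 1.93 FPKM, IAA29 from 1.97 ± 0.600 to 46.1 ± 3.65 FPKM and IAA2 from 49.7 ± 6.03 to 185 ± 13.3 FPKM in Col-0.

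**Figure D5:**
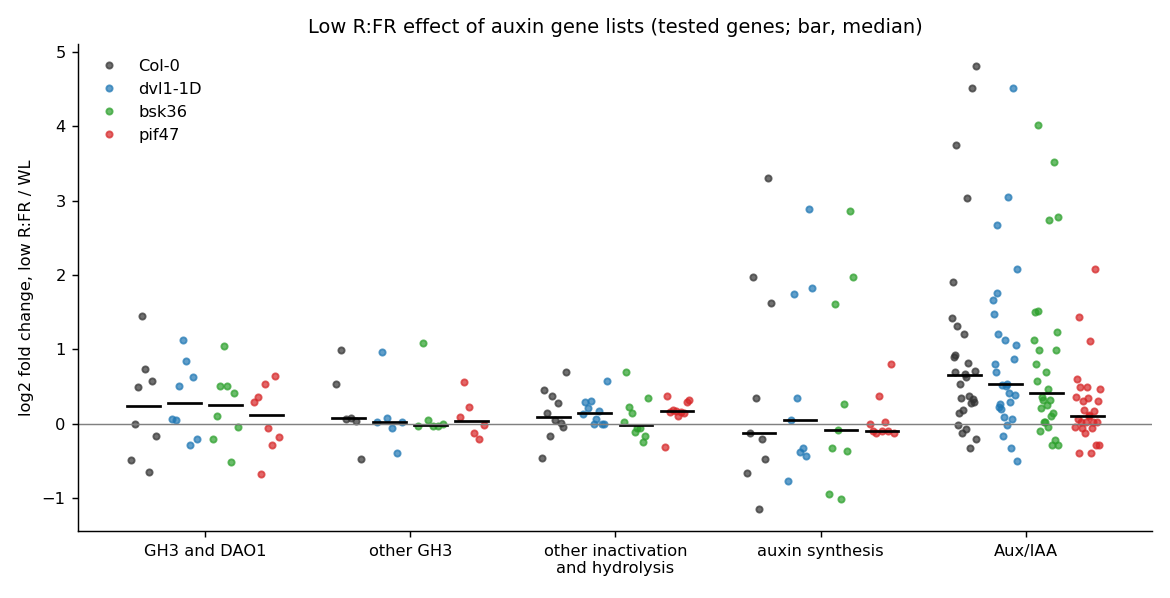
Log2 fold change between low R:FR and WL on the log2(FPKM + 0.1) scale (y axis) of the tested genes of 5 lists (x axis) in each genotype, 1 point a gene, with a bar at the median. The Aux/IAA median was 0.65 in Col-0 and 0.11 in pif47, and that of GH3 and DAO1 was 0.24 and 0.12. Taken gene by gene, the median difference in this effect between pif47 and Col-0 was 0.02 over the tested GH3 and DAO1 genes.

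The tested genes whose profile over the 8 groups was closest to that of GH3.5 were IAA7, BSK5 and AT2G19660, with mean absolute log2 differences of 0.069, 0.089 and 0.097 between centred group means. IAA7, an Aux/IAA repressor gene, had group means of 113 FPKM in WL and 281 FPKM in low R:FR in Col-0, and of 100.4 and 142 FPKM in pif47.

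Root and shoot transcripts were checked because GH3.9 and GH3.17 are known from roots and hypocotyls. The 14 root markers were above 0 in every library and summed to 188 to 224 FPKM in Col-0 in WL, 137 to 203 FPKM in Col-0 in low R:FR and 167 to 223 FPKM in pif47 in low R:FR. In Col-0, 4 of them were called higher and 2 lower in low R:FR, against 21% and 15.7% of all tested genes. The sums of Col-0 in WL and in low R:FR overlapped, as did those of bsk36 and of pif47. In dvl1-1D they did not overlap, at 219 to 243 FPKM in WL and 159 to 176 FPKM in low R:FR. The 2 markers called lower were NRT2.1 and the iron transporter gene IRT1, and IRT1 went from 85.4 ± 6.73 to 26.9 ± 16.1 FPKM. Among those called higher, the cell wall protein genes PRP1 and PRP3 rose by 1.09 (SE 0.214, adjusted p = 0.000481) and 0.85 (SE 0.218, adjusted p = 0.00441) on the log2 scale. In the limma test of the difference between pif47 and Col-0, 0 of the 14 were called and 1 had an unadjusted p under 0.05. In that test 1.68% of all tested genes were called lower, so 14 genes are too few to show a departure from that share. The 8 shoot markers, also above 0 in every library, summed to 61652 to 67164 FPKM in Col-0 in WL and to 57247 to 63887 FPKM in low R:FR. This sum covered opposite changes, since 4 genes of light-harvesting proteins, among them LHCA1 (0.65) and LHCB3 (0.60), rose in Col-0 and 3 genes of the small Rubisco subunit, among them RBCS1B (-0.76), fell. LHCB3 also differed between pif47 and Col-0 in its low R:FR effect (0.55, SE 0.109, adjusted p = 0.00727), as 1 of the 8. In bsk36 in WL the shoot markers summed to 54527 to 59101 FPKM, below every Col-0 library in WL, and the root markers to 152 to 202 FPKM. Against Col-0 in WL, LHCA1 was higher in bsk36 (0.50, SE 0.0775, limma adjusted p = 0.000399). RBCS1B was lower there (-0.58, SE 0.0733, adjusted p = 5.81e-05). These root and shoot genes were named after their values were seen. The part of these markers in the GH3 results was not tested.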

How the data were processed

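The authors deposited FPKM with 2 decimals for 32833 genes and 24 libraries made by a sequencing company from poly(A) RNA, and columns with the mean of each group, which were not used. The submitters' processing notes name fastp, cutadapt, HISAT2, DESeq2 and the build TAIR10, and the counting method and annotation are not given in the sources used here. FPKM are not counts, so limma 3.58.1 in R 4.3.3 was fitted to log2(FPKM + 0.1) of the 20682 genes with a mean of at least 0.5 FPKM, with 1 mean for each of the 8 groups and a mean-variance trend, and tested on simulated data. A call needed a Benjamini-Hochberg adjusted p under 0.05, with the adjustment over every tested gene of the contrast. Whether replicates came from separate cultures is not stated, so p-values measure the spread between these libraries. Genes and lists were chosen with earlier results of these data known. By rule, text names all 9 genes and checks on the altered genes. It also names the 3 genes of each of the 4 other GH3 and auxin lists with the smallest p in Col-0. The 3 profiles nearest to a gene called in Col-0 with a fold of 2 or more are named as well. Root and shoot markers were summed by library. Alternatives were other pseudocounts, filters, scalings, sample sets, thresholds, a replicate block and leaving out each library. Names come from a RefSeq table of TAIR10.1, which lists 32548 of the loci. Since the builds may differ, no coordinates are given, and no sequences were used.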

Additional observations from a re-analysis of the deposited data

Results flagged for a closer look

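Effects of low R:FR that differed between genotypes by a test of the difference itself (limma, Benjamini-Hochberg adjusted p) were found for 3 genes. Against Col-0, the effect in pif47 differed by -1.16 on the log2 scale for GH3.3 (SE 0.208, adjusted p = 0.00319), by -0.92 for GH3.5 (SE 0.157, adjusted p = 0.00214) and by -0.80 for GH3.6 (SE 0.104, adjusted p = 0.000143). Against dvl1-1D it differed by -1.18 for GH3.3 (adjusted p = 0.00343) and by -0.91 for GH3.6 (adjusted p = 3.62e-05). Against bsk36 it differed by -1.18 for GH3.3 (adjusted p = 0.00246) and by -0.57 for GH3.6 (adjusted p = 0.00331). GH3.3 was the 1 gene of these with a called fall in pif47 and a called rise in each of the other 3 genotypes. The comparisons share the pif47 libraries and were not independent of each other.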

How the results depend on the processing

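No called result reversed direction in any alternative. The study's thresholds, a fold of 2 or more and P of 0.01 or less, were also put on the limma results. The number of the 9 genes called for low R:FR against WL was then 1 in Col-0, 1 in bsk36, 1 in dvl1-1D and 0 in pif47. It was 0 for bsk36 against Col-0 in WL, 1 for pif47 against Col-0 in low R:FR and 1 for the pif47 interaction. These counts were low because most fold changes were under 2. For bsk36 against Col-0 in WL, GH3.5 was not called with only the libraries compared (0.35, limma adjusted p = 0.062) or with quantile normalization (0.29, 0.0923). After rescaling each library to the same sum, GH3.6 was called as well (0.24, 0.0284). Leaving out each library in turn gave 3 to 5 genes in Col-0, 3 to 4 in dvl1-1D, 3 to 4 in bsk36, 3 in pif47, 0 to 2 for bsk36 against Col-0 in WL, 3 to 4 for pif47 against Col-0 in low R:FR and 3 for the pif47 interaction. These counts were not set beside the share of all tested genes called in each fit, so whether they follow that share is not known. Same-numbered libraries did not deviate together (correlations from -0.143 to 0.103, median 0.00589, over 84 pairs), so the replicate numbers were not treated as pairs. With the block, GH3.9 in Col-0 was not called (adjusted p = 0.0538), GH3.6 was called in bsk36 in WL (adjusted p = 0.0423), and the GH3.5 effect in pif47 was called against that in dvl1-1D (0.0108) and bsk36 (0.0223). GH3.9 in Col-0 was also lost with pseudocounts of 0.5 (0.0531) and 1 (0.0606), without a filter (0.0504) and with only the libraries compared (0.176), and GH3.3 in dvl1-1D with quantile normalization (0.0506) and only the libraries compared (0.0622). A filter at a mean of 5 FPKM left GH3.1 and GH3.9 without a value. The number of reads is unknown, so counting error could not be set beside the low values of GH3.1 and GH3.9.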

Other observations

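One further member of the GH3 family stood lower in dvl1-1D, and it was chosen after its values were seen. GH3.15, known for acting on indole-3-butyric acid, was at 6.46 ± 0.315 FPKM in dvl1-1D and 10.7 ± 0.999 FPKM in Col-0 in low R:FR (SD, n = 3 libraries each), a log2 fold change of -0.71 (SE 0.0917, limma adjusted p = 5.36e-05). It was the 1 gene called of 6 other GH3 genes tested, in a contrast where 9.4% of all tested genes were called. In WL it was at 8.59 ± 0.847 FPKM in dvl1-1D and 10.3 ± 0.665 FPKM in Col-0, lower but not called (-0.27, adjusted p = 0.0966). In dvl1-1D it fell by 0.40 on the log2 scale between WL and low R:FR (adjusted p = 0.00363), and in Col-0 its change was 0.04 (95% interval -0.15 to 0.23). The test of the difference between these effects gave -0.44 (adjusted p = 0.0723), which did not pass the threshold.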
